A study of Homo sapiens with 151 samples.

Results

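The 4 human HOX gene clusters were examined in ChIP-seq peak lists of DNA-associated proteins (DAPs) in HepG2, a human liver cancer cell line. The members were the 39 protein-coding genes of GENCODE 44 named HOX followed by A, B, C or D and a paralog number, of 20033 protein-coding genes in all. They lie in HOXA on chromosome 7 (11 genes), HOXB on chromosome 17 (10 genes), HOXC on chromosome 12 (9 genes) and HOXD on chromosome 2 (9 genes). For each gene, the peak lists that overlap the 500 bp on either side of its canonical transcription start site (TSS) were counted, and this window is called the promoter.

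The series holds 151 samples, of which 24 are input libraries without a list and each of the others is the peak list of a DAP. Every DAP carried a FLAG tag in HepG2 cells, with no treatment named in the labels, and was precipitated with the same monoclonal anti-FLAG M2 antibody, following a protocol for tagging proteins at their own genes (CETCh-seq). All but 6 lists are marked as the study's preferred data set for their DAP, 106 of them for transcription factors (TFs) and 15 for other DAPs, and counts below are over these preferred lists unless stated otherwise. They hold from 195 to 61748 peaks, with a median of 8680. No list has a replicate list of its own, so no test between lists was possible, and every comparison is a description of these lists.

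HOX genes encode homeodomain TFs that give body regions their identity along the head-to-tail axis. Within a cluster, genes with low paralog numbers sit at the end that is active first and furthest forward, and genes with high numbers at the end that is active later and nearer the tail. MEIS and PBX proteins are homeodomain cofactors of the TALE class that bind DNA together with HOX proteins and are also known to act on HOX genes themselves. Outside the tissues that use them, HOX clusters are classical targets of Polycomb repression, and SCMH1 is a relative of the fly Polycomb protein Sex comb on midleg.

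The sequences below are those the results turn on. The first set holds the 4 RefSeq HOX promoters (250 bases before to 50 after a start, build GRCh38.p14, written along the gene) that at least 20 lists overlapped, of 27 RefSeq promoters found for 20 of the 39 genes. Capitals mark CG dinucleotides, the pairs whose density defines CpG islands. The HOXD1 promoter (chr2:176188418-176188717, plus strand) was overlapped by 44 lists and the HOXA4 promoter (chr7:27130708-27131007, minus strand) by 30 lists. The other 2 are start sites of HOXA3 other than the canonical one, at chr7:27150901-27151200 (27 lists) and chr7:27122323-27122622 (32 lists), both on the minus strand.
HOXD1: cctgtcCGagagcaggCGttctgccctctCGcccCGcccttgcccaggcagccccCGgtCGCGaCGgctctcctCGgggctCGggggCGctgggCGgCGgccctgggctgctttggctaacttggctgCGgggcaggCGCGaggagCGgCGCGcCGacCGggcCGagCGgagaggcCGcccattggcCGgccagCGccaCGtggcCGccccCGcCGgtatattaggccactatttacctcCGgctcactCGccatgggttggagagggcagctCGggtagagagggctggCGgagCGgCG
HOXA4: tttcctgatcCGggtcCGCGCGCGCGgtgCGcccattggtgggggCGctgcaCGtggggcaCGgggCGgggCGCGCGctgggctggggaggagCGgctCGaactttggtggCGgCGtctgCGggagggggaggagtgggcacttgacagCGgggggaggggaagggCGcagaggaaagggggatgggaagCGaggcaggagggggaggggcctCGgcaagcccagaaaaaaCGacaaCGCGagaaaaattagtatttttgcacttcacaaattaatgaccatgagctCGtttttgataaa
HOXA3, second start: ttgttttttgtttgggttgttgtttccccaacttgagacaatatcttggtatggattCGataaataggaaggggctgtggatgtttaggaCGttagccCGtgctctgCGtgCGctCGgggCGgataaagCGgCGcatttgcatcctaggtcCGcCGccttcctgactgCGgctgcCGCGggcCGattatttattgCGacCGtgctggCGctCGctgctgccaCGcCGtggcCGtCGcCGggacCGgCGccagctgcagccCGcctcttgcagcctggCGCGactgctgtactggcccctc
HOXA3, downstream start: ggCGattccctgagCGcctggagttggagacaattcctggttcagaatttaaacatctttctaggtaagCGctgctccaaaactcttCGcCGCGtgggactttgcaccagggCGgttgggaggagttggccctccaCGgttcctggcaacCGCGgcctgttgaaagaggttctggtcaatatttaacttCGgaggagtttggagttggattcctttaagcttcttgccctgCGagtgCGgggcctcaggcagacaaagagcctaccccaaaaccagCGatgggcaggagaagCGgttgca

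HOXD1 had the highest GC content of these (74.3%, 36 CG dinucleotides), followed by HOXA4 (63.3%, 27 CG), the second HOXA3 start (60.7%, 29 CG) and the downstream HOXA3 start (55.0%, 15 CG).

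The second set holds summits of SCMH1, whose 3 peaks in the clusters were all in HOXD, with 50 bases on either side (hg38, plus strand). The 2 shown lie upstream of HOXD12 (chr2:176096661-176096761) and inside the HOXD3 gene body (chr2:176160027-176160127), while the other, in an exon of HOXD8 (chr2:176132474-176132574), is given by place only.
SCMH1 near HOXD12: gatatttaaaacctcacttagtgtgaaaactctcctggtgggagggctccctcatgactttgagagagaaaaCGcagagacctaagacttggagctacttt
SCMH1 in HOXD3: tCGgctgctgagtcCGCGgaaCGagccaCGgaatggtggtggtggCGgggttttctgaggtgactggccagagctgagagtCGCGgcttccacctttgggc

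Of the 3 windows, that in HOXD3 had the highest GC content (64.4% GC, 8 CG), and 8 other lists had a summit within 100 bp of that SCMH1 summit. The windows at HOXD12 (44.6% GC, 1 CG) and HOXD8 (46.5% GC, 6 CG) had no other list there.

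The last window is one of the 4 places where summits of MEIS1 and MEIS2 lay within 100 bp of each other, chosen after the values were seen because most lists had a summit there (hg38, plus strand). It lies between HOXD8 and HOXD4 (chr2:176140669-176140769, 41 lists with MEIS1 included, 76.2% GC and 15 CG). The window holds no MEIS2 summit. The MEIS2 summit within 100 bp (chr2:176140815) is among the weakest of its list by signal, at rank 20689 of 20909. A stronger MEIS2 summit (chr2:176140616, rank 9518) lies farther than 100 bp from the MEIS1 summit.
MEIS1 between HOXD8 and HOXD4: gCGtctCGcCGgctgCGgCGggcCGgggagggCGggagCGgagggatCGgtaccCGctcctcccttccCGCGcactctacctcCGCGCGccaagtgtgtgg

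The promoters of most HOX genes had no peak in any list. Of the 39 promoters, 10 were overlapped by a peak in at least 1 list (25.6%, Wilson 95% interval 14.6% to 41.1%), whereas 67.9% of all protein-coding promoters were. Only HOXD1 and HOXA4 reached 25% of the lists (31 lists), 2 of 39 (5.13%, 1.42% to 16.9%) beside 36.9% of all promoters. The median HOX promoter had 0 lists and the median protein-coding promoter 15. The mean was 3.08 ± 9.72 lists (SD over 39 genes) for HOX and 24 ± 26.2 (SD over 20033 genes) for all. The intervals cover counting error only.

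The difference was also present among CpG-rich promoters. This class was defined by a GC share of at least 0.5 and a ratio of observed to expected CG of at least 0.6 over the window, which 32 of the 39 HOX promoters met. All 10 bound HOX promoters were among these 32 (31.2%), while 86.5% of all CpG-rich promoters had a peak. The 25% level was reached by 2 of the 32 (6.25%), against 52.6% of all CpG-rich promoters. The 7 HOX promoters that missed the rule, HOXB1, HOXB2, HOXB3, HOXB6, HOXB8, HOXB13 and HOXC6, had no list.

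**Figure D1:**
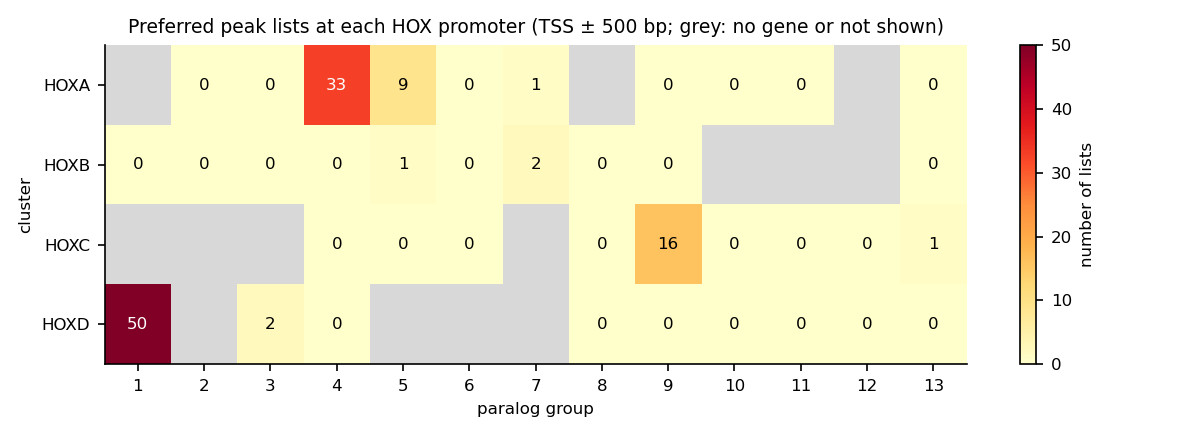
Number of preferred lists with a peak at each HOX promoter, with clusters as rows and paralog groups 1 to 13 as columns (grey squares have no gene or no value shown). The count is 0 for 29 of the 39 genes, and HOXD1 (50), HOXA4 (33) and HOXC9 (16) hold most of the total.

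HOXD1, an anterior gene at the end of its cluster, had peaks in 50 lists (41.3% of the preferred lists, Wilson 95% interval 32.9% to 50.2%), which drew on 20 different input libraries. HOXA4 had 33 lists (27.3%, 20.1% to 35.8%) from 19 input libraries, and HOXC9, a gene of the trunk region, had 16 (13.2%, 8.31% to 20.4%) from 11. These 3 promoters held 99 of the 120 pairs of list and promoter (82.5%), of 4719 possible pairs. Set among all protein-coding genes, 18.4% had more lists than HOXD1, 34.1% more than HOXA4 and 49.1% more than HOXC9.

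The lists at these 3 promoters overlapped in part. HOXA4 and HOXD1 shared 21 lists, which are 63.6% of the HOXA4 lists and 42.0% of the HOXD1 lists. HOXC9 shared 12 lists with HOXD1 (75.0% of its own) and 7 with HOXA4 (43.8%). The same 7 lists were at all 3, namely MGA, POU2F1, SALL1, SALL2, SMAD7, ZFP91 and ZNF74. ELK3, GLYR1, HES4, HSF4 and NR1H2 were at HOXC9 and HOXD1 and not at HOXA4, whereas ELK4, E4F1, ZNF529 and ZNF552 were at HOXC9 and at neither of the others.

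The other bound promoters reported here had between 1 and 9 lists. HOXA5, known for its part in lung and neck development, had 9 (E2F8, GLYR1, JRK, MGA, POU2F1, SALL1, ZBTB12, ZFP91 and ZMYM4). HOXB7 had MGA and SALL1, and HOXD3 had SALL1 and ZNF865. HOXA7 (MGA), HOXB5 (POU2F1) and HOXC13 (ZFP91) had 1 list each. Apart from GLYR1, E2F8, JRK, ZMYM4 and ZNF865, each of these lists was among the 6 with most HOX promoters, described further on.

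The 29 promoters without a list were HOXA2, HOXA3, HOXA6, HOXA9, HOXA10, HOXA11 and HOXA13 in HOXA, HOXB1, HOXB2, HOXB3, HOXB4, HOXB6, HOXB8, HOXB9 and HOXB13 in HOXB, HOXC4, HOXC5, HOXC6, HOXC8, HOXC10, HOXC11 and HOXC12 in HOXC, and HOXD4, HOXD8, HOXD9, HOXD10, HOXD11, HOXD12 and HOXD13 in HOXD. A count of 0 over the preferred lists allows a share of up to 2.48% (3 counts). From the TSS of these genes to the nearest peak of any list was 557 bp (HOXA13) to 25777 bp (HOXC4), with a median of 3564 bp, and 9 were farther than 5 kb. Within 2 kb of the TSS, 20 of the 39 genes still had no peak, and the 19 with a peak compare with 72.6% of all protein-coding genes.

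Paralog position went with the counts as follows. Of the genes in groups 1 to 5, 6 of 15 were bound, with a mean of 6.67 ± 14.7 lists (SD). In groups 6 to 8, 2 of 8 were bound (0.375 ± 0.744), and in groups 9 to 13, 2 of 16 (1.06 ± 3.99). The SDs exceed the means, and HOXD1 and HOXA4 supply 83 of the 100 pairs of list and promoter in groups 1 to 5. Means by cluster were within their spread as well, with values of 4.36 ± 9.93 for HOXA, 0.3 ± 0.675 for HOXB, 1.89 ± 5.3 for HOXC and 5.78 ± 16.6 for HOXD.

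Counting every start of protein-coding transcripts raised the bound genes to 12 of 39 (all genes 71.1%). The 2 added genes were bound far from their canonical TSS. HOXC6 had 20 lists at a start 33496 bp from it, on the plus strand between HOXC10 and HOXC9, and HOXA10 had 7 lists at a start 5941 bp upstream, MEIS1 and MEIS2 among them. HOXD3 went from 2 lists to 6 at a start 3584 bp downstream of the canonical one. The 2 RefSeq starts of HOXA3 printed above, with 27 and 32 lists, are not among these GENCODE starts. HOXA3 therefore stays unbound in this count, although the RefSeq start with 32 lists is above the level of 31.

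Along the clusters, bound stretches alternated with long silent ones. Peaks of the preferred lists covered 10.2% of the bases of the clusters together and 3.1% of the genome. Each cluster was taken as its HOX gene bodies with 10 kb on either side, and a silent stretch was a run of at least 5 kb with no base in a peak of any preferred list. HOXD (chr2:176082721-176200907) held 327 peaks from 85 lists and HOXA (chr7:27082993-27210091) held 217 from 63 lists. HOXB (chr17:48518526-48738750) held 92 peaks from 37 lists and HOXC (chr12:53928831-54066030) held 72 from 39 lists. As densities these are 2770 peaks per Mb in HOXD, 1710 in HOXA, 525 in HOXC and 418 in HOXB, where the whole genome had 457. Genome-wide shares of bases and densities, here and below, are over all chromosome bases and were not matched for gene density.

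Silent stretches made up 86.1% of HOXB, 84.9% of HOXC, 66.0% of HOXD and 56.4% of HOXA. Over the clusters together the share was 75.6%, against 94.2% of the genome by the same definition. The 37 stretches held the canonical TSS of 27 of the 39 genes (69.2%, against 33.0% of all protein-coding genes), with 9 of 10 in HOXB, 8 of 9 in HOXC, 6 of 9 in HOXD and 4 of 11 in HOXA. Of these 27 genes, 3 count as bound (HOXB5, HOXC13 and HOXD3), since a peak reached the promoter window but not the TSS. HOXC had the longest, 47.5 kb (chr12:54018528-54066030), which took in the TSSs of HOXC6, HOXC5 and HOXC4 and ran to the edge of the interval. HOXB had a run of 36.5 kb (chr17:48679158-48715706) between HOXB9 and HOXB13 without a HOX gene, and 24.7 kb around HOXB1. In HOXA the longest was 18.8 kb (chr7:27180193-27198944) over HOXA11, and in HOXD 15.8 kb (chr2:176111780-176127593) over HOXD10 and HOXD9, genes of the limb and tail.

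**Figure D2:**
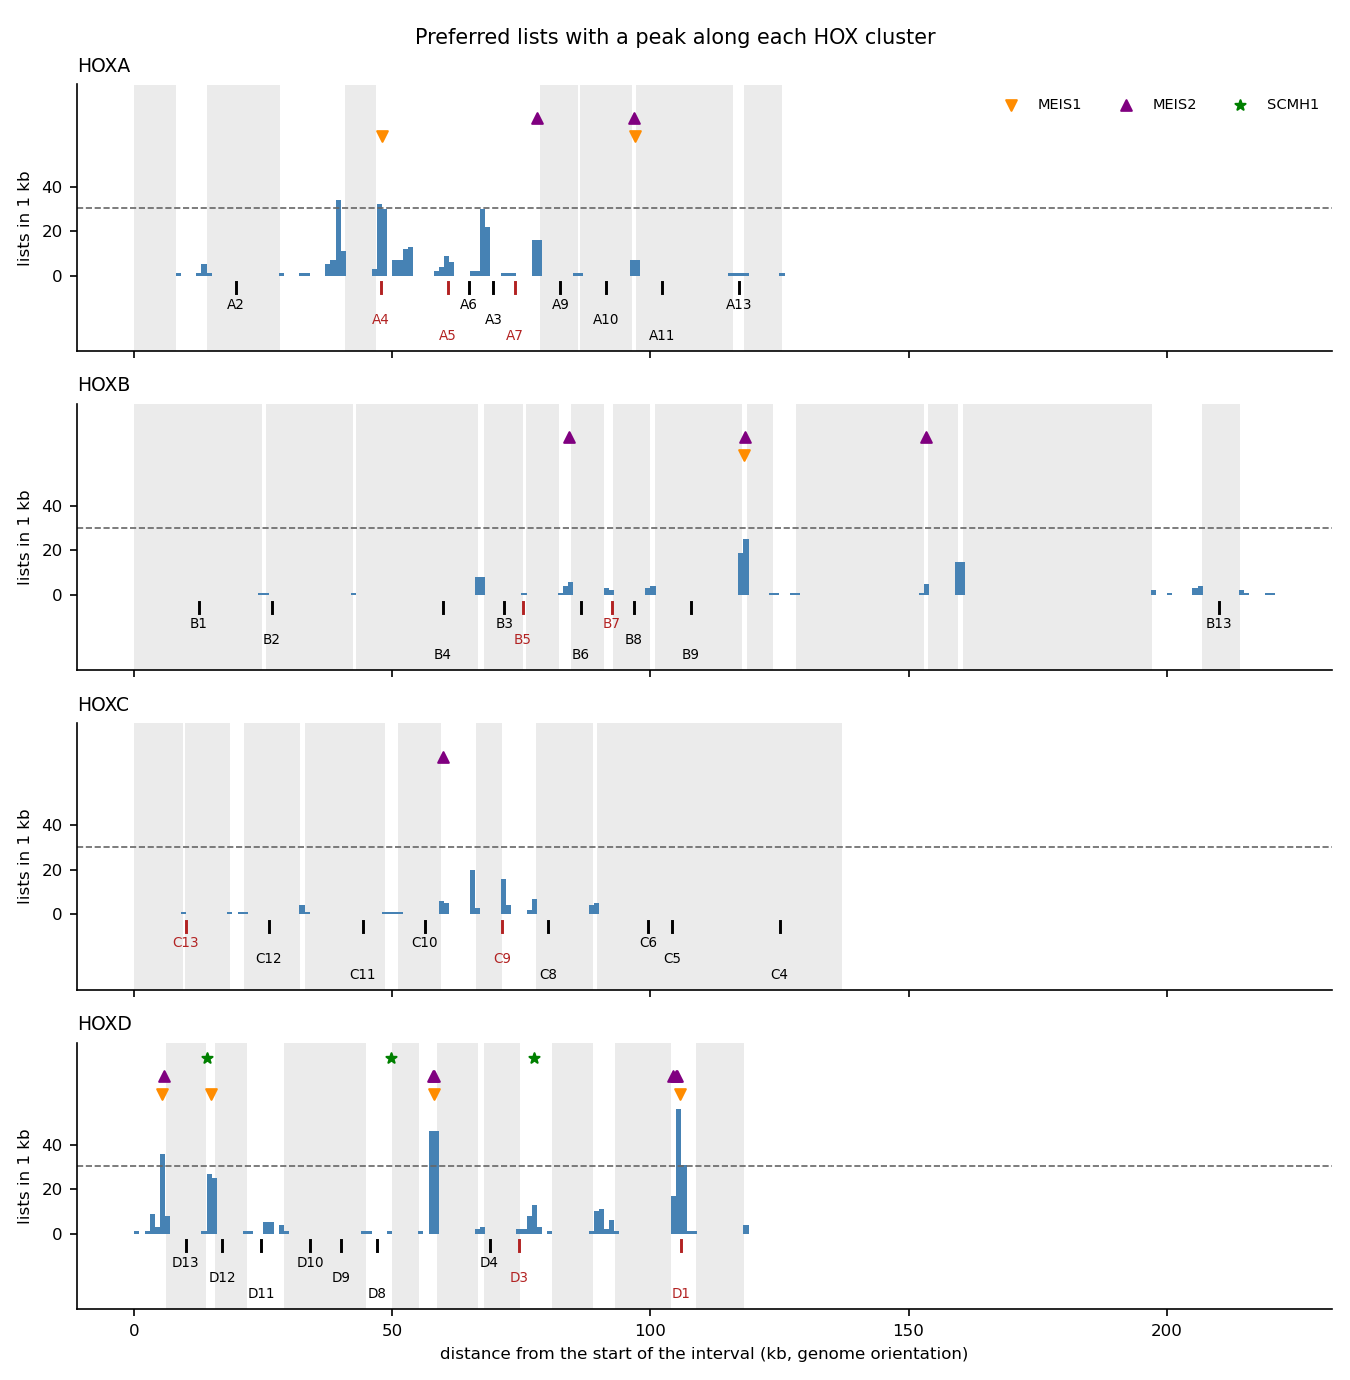
Number of preferred lists with a peak in each 1 kb bin (blue bars, y axis) along the 4 clusters (x axis, kb from the start of each interval). Ticks under the axis mark canonical HOX TSSs reported here (red where bound), grey shading marks silent stretches, the dashed line stands for 25% of lists, and symbols give summits of MEIS1, MEIS2 and SCMH1 in regions reported here. Tall bars stand at HOXD1 and HOXA4 and also away from canonical TSSs, as between HOXD8 and HOXD4.

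The central 100 bp of peaks were merged where they overlapped or touched, which gave 128 regions in the clusters. Regions with a lone list made up 57.0% (genome 55.3%), and 4 regions had at least 31 lists (3.12%, genome 4.95%). With a level of 10 lists, chosen after the values were seen, there were 15 regions. Of these, 3 had their middle within 500 bp of a canonical HOX TSS, 4 within 500 bp of any annotated start of a protein-coding HOX transcript, and 7 within 500 bp of a start of any gene.

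Among the merged regions of HOXD, the one with most lists was not at a promoter. It lay 10722 bp upstream of HOXD4 (chr2:176140531-176141126) within the HOXD3 gene body, with 46 lists from 20 input libraries, MEIS1 and MEIS2 among them. The HOXD1 region (chr2:176188240-176188913) had 43 lists including MEIS1. Directly beside it, a region 830 bp upstream of the HOXD1 TSS (chr2:176187460-176188217) had 24 including MEIS2. The merge thus splits the binding at HOXD1, and the order of regions depends on it. The HOXD1 promoter window had 50 lists and the 1 kb bin that holds its TSS 56, both above 46. A region 4483 bp upstream of HOXD13 (chr2:176087932-176088544), between EVX2 and HOXD13 and outside any gene, had 36 lists with MEIS1 and MEIS2, although the HOXD13 promoter had none. A region 2079 bp upstream of HOXD12 (chr2:176097431-176098001) had 25 lists with MEIS1, and one in HOXD3 (chr2:176159810-176160335) had 10 with SCMH1.

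In HOXA, 3 regions of nearly equal height lay at starts or close to them. The largest, with 32 lists (chr7:27122216-27122836), covers the downstream HOXA3 start printed above and the exon of HOXA-AS2, a non-coding RNA of the other strand with an alternative transcript start 22 bp from the region's middle. The main start of HOXA-AS2 lies elsewhere and had 0 lists. HOXA4 (chr7:27130767-27131406) had 30 lists with MEIS1, and the second HOXA3 start (chr7:27150405-27151243) had 29. A transcript start of HOXA6, other than its canonical one, lies 221 bp from the middle of the region at the second HOXA3 start. ChIP-seq carries no strand, so peaks at these HOXA3 starts cannot be given to HOXA3 or to its antisense neighbour. Those at the second start cannot be divided between HOXA3 and HOXA6 either. A region upstream of HOXA7 (chr7:27160802-27161282) had 16 lists with MEIS2.

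HOXB and HOXC each had 2 such regions. The larger in HOXB lay 10341 bp upstream of HOXB9 in the non-coding gene LINC03057 (chr17:48636549-48636849), with 25 lists, MEIS1 and MEIS2 included, and the other in LINC02086 with 15. In HOXC, 19 lists lay at chr12:53994280-53994638, 485 bp from that HOXC6 start and 436 bp from a transcript start of HOXC9. Another 16 lay at the canonical HOXC9 start (chr12:54000341-54000702), where the region's middle is 360 bp inside the gene.

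Peaks in these regions were of middling strength within their lists. The median rank of a list's peak by the authors' signal was 28.7% between HOXD8 and HOXD4, 37.3% at HOXD1, 41.6% at HOXA4 and 56.4% in the HOXC region near the HOXC6 start, where 0% is the list's strongest peak. The best single rank was 3.43%, for ZMYM4 at HOXD1.

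MEIS1 had 8 peaks in the clusters of its 18514 (0.0432%, Wilson 0.0219% to 0.0853%), 3 in HOXA, 1 in HOXB, none in HOXC and 4 in HOXD. At the genome-wide density of its list 3.61 would fall there. Of its peaks, 7 lay in regions of at least 10 lists. It overlapped 2 HOX promoters, HOXA4 and HOXD1 (5.13%, 1.42% to 16.9%), where 28.4% of all protein-coding promoters have a MEIS1 peak. The peak at HOXA4 ranked at 46.4% of the list by signal and that at HOXD1 at 78.6%. Its strongest in the clusters, at 20.9%, was the one between HOXD8 and HOXD4.

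MEIS2 had 14 peaks of 20909 (0.067%, 0.0399% to 0.112%), 4 in HOXA, 3 in HOXB, 1 in HOXC and 6 in HOXD, beside 4.08 at its own density. None overlapped a HOX promoter, and 0 of 39 allows a share of up to 7.69% (3 counts), while 33.9% of all promoters have a MEIS2 peak. Its ranks in the clusters ran from 36.5% upstream of HOXD13 to 98.9% between HOXD8 and HOXD4, with a median of 63.2% (MEIS1 45.2%). Near HOXD1 it had 3 summits, 707 bp, 909 bp and 1510 bp upstream of the TSS. Summits of MEIS1 lay within 100 bp of a MEIS2 summit at 4 of 8 places in the clusters and at 36.5% of 18514 in the genome. MEIS1 and MEIS2 were called against different input libraries.

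PBX3 had no peak in any cluster of its 4243, which allows a share of up to 0.0707% (3 counts), and 0.828 would fall there at its genome-wide density, so a lower density was not detectable with this number of peaks. It was at no HOX promoter and at 12.9% of all promoters. MEIS2 and PBX3 were called against the same input library.

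SCMH1 had the shortest of the preferred lists, 195 peaks, of which 3 lay in HOXD (1.54%, 0.525% to 4.42%) where 0.0381 would fall in all clusters at its density. This is 78.8 times its genome-wide density, the first of all preferred lists in that order, while MEIS2 was at place 25, MEIS1 at 54 and PBX3 at 97, and the median list was at 1.97 times. The order was computed with the clusters already chosen, and the SCMH1 ratio rests on 3 peaks. They ranked at 23.6% (HOXD12), 57.4% (HOXD8) and 35.9% (HOXD3) of its list, with scores of 1000, 845 and 704 on the authors' scale. The summits were 3084 bp from the HOXD12 TSS, 2167 bp from an annotated HOXD8 start and 814 bp from a HOXD3 start, and no HOX promoter was overlapped, where 0.195% of all promoters (39 genes) are.

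Letters of known binding motifs were searched in the promoter windows and in the 50 bases on either side of summits, on both strands. TGACAG, the MEIS core, was in none of the 8 MEIS1 and none of the 14 MEIS2 windows in the clusters, and in 12.3% and 12.4% of these lists' windows genome-wide. TGATTGAC (PBX with MEIS) and TGATTNAT (PBX with HOX) were in none of these cluster windows and in 0.799% and 1.2% of all MEIS1 windows. With 8 and 14 windows, a share below the genome-wide one was not detectable for any of these motifs. Among promoter windows, TGACAG was in 13 of 39 HOX promoters (33.3%) and 38.8% of all, TGATTNAT in 5 (12.8%) and 6.39%, and TGATTGAC in 1 (2.56%) and 1.38%. Over all CpG-rich promoters the shares were 33.5% for TGACAG, 3.4% for TGATTNAT and 1.17% for TGATTGAC. In the printed HOXA4 promoter, TGACAG stands at bases 144 to 149. That match lies inside the MEIS1 peak at HOXA4 (chr7:27130635-27131194) and directly outside its summit window (chr7:27130865-27130965). The count of 0 for MEIS1 therefore depends on the window width. A match is a match of letters only.

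**Figure D3:**
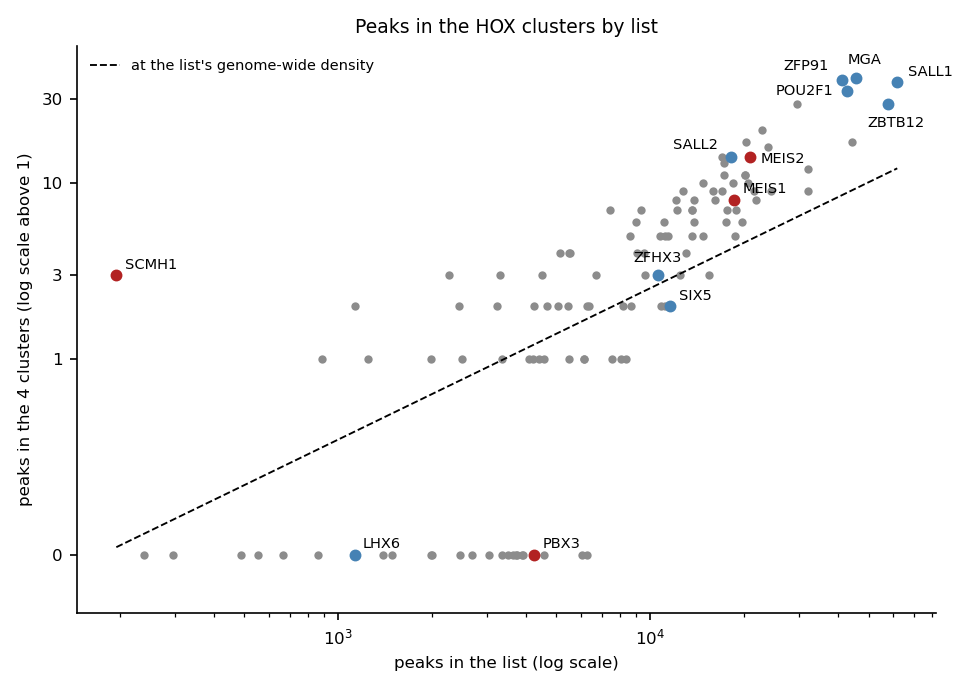
Peaks of each preferred list in the 4 clusters (y axis, log scale above 1) against all peaks of the list (x axis, log scale). The dashed line is the number at the list's own genome-wide density, red points are MEIS1, MEIS2, PBX3 and SCMH1, and SCMH1 stands far above the line with 3 peaks of 195.

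By list, 66 had a peak at a HOX promoter, 38 of them at 1 promoter and 28 at 2 or more, and 55 had none. MGA, a partner of MAX found in a variant Polycomb complex, had most, 7 promoters, among them HOXA4, HOXA5, HOXA7, HOXB7, HOXC9 and HOXD1. POU2F1, the octamer-binding POU homeodomain factor, had 6, as did the zinc finger protein SALL1, a relative of fly spalt, and ZFP91. SALL2 and ZBTB12 followed with 4 each. These lists are long: MGA has 45456 peaks and overlaps 49.8% of all protein-coding promoters, SALL1 has 61748 (55.0%), POU2F1 42562 (52.7%), ZFP91 41124 (53.0%) and ZBTB12 57621 (54.1%), while SALL2 has 18153 (36.2%). HOX promoters were 0.0701% of the promoters MGA overlaps and between 0.0544% and 0.0568% for SALL1, POU2F1 and ZFP91. Among all protein-coding promoters they are 39 of 20033, which is a larger share than in any of these 4 lists.

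The other homeodomain lists had few peaks there. SIX5 and ZFHX3 were at HOXD1 only, each with 1 promoter, and LHX6, with 1131 peaks in all, had no peak in the clusters. A peak anywhere in the clusters was found in 96 lists and in none of 25. In 86 lists peaks were denser in the clusters than over all bases of the genome, which was not matched for gene density.

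Other gene lists were counted in the same way. Of 40 homeobox genes outside the clusters, such as DLX, IRX and LHX genes, 23 were bound and 5 reached 25% of the lists, with a median of 1 list. They ranged from 0 at IRX1, OTX2 and NKX6-1 to 57 at OTX1 and 74 at DLX2. The 11 genes for TALE cofactors had a median of 15 lists with 9 bound, among them MEIS1 with 55 and PBX3 with 3. All 26 Polycomb genes were bound (median 33.5), as were all 12 Trithorax genes (median 34.5) and all 21 hepatocyte genes (median 48). Of all protein-coding promoters 67.9% were bound (median 15) and 36.9% reached 25% of the lists. Of the CpG-rich ones 86.5% were bound (median 33). The CpG rule was met by 25 of the 26 Polycomb genes and all 12 Trithorax genes. Of the hepatocyte genes 4 met it. The hepatocyte genes were meant as a check of the labelled cell line by binding only, since the lists hold no expression values. The counts as taken do not decide this, because all Polycomb and Trithorax genes were bound as well. Those lists are almost all CpG-rich and the hepatocyte genes mostly are not, so they are not matched. The share over all promoters that miss the CpG rule was not set beside them. At 25% of the lists the hepatocyte and Trithorax shares were both 66.7%. Hepatocyte genes ranged from 1 list (FGB) to 97 (APOB), with 13 at the gene for albumin.

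The protein-coding genes directly next to the clusters had fewer lists by median than those farther out. The next gene on each side, 8.76 to 228 kb away, had a median of 10 lists, beside 15 for all protein-coding genes. Of these 8 genes 6 were below 31 lists and 2 reached that level, which 36.9% of all protein-coding genes reach. EVX1 (0 lists) and EVX2 (1 list) are homeobox genes at the ends of HOXA and HOXD. Beside HOXB lay SKAP1 (0 lists) and TTLL6 (15 lists), and beside HOXC SMUG1 (5 lists) and CALCOCO1 (20 lists). The other two were SKAP2 below HOXA with 41 lists and MTX2 above HOXD with 80. The 2 genes beyond these on each side, 16 in all and 90.5 to 1070 kb away, had a median of 54.5. All 16 were bound (67.9% of all protein-coding genes) and 14 reached 31 lists. Over all 24 the median was 51.5.

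**Figure D4:**
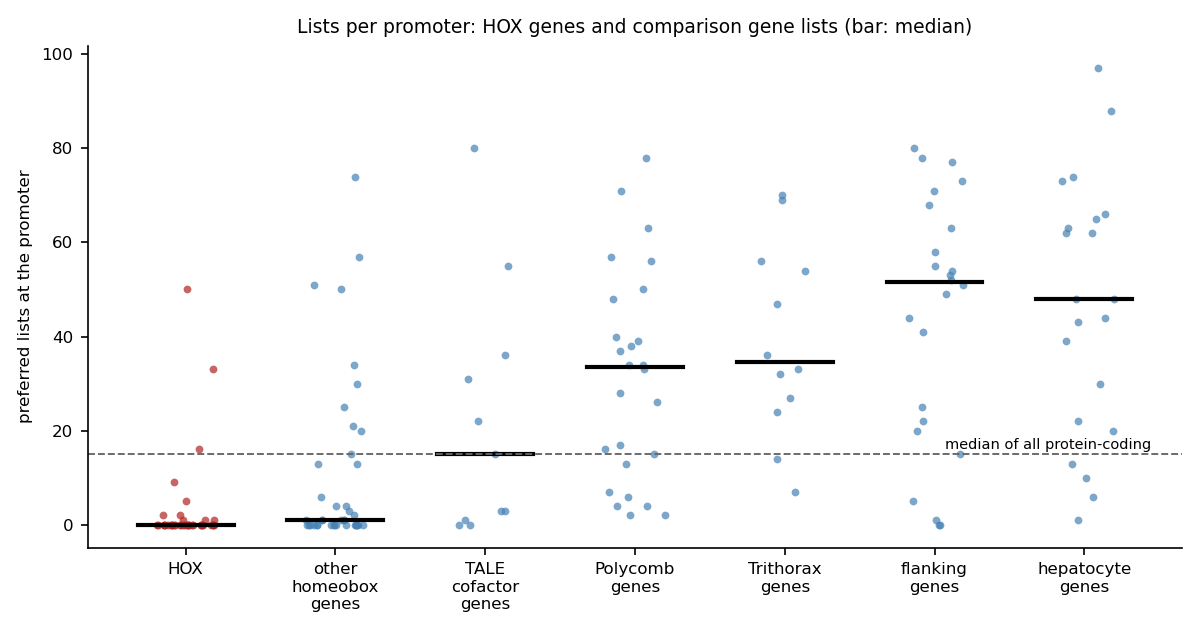
Lists per promoter (y axis) for each HOX gene and for the genes of 6 comparison lists, with a black bar at each median and a dashed line at the median of all protein-coding genes (15). The HOX median is 0, the other homeobox genes are at 1 and the 24 flanking genes at 51.5.

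The non-coding genes of the clusters with most lists lay beside bound HOX genes. Of 30 lncRNA genes, 9 had a list, near the 29.7% of all lncRNA genes, led by HAGLR with 53, whose start is 137 bp from that of HOXD1. HOXC-AS1, 151 bp from HOXC9, had 16. Of 8 miRNA genes 4 had a list, namely MIR7704 with 46 (175 bp from HOXD1), MIR3185 with 4, MIR10B with 3 and MIR196B with 1. MIR10A, MIR196A1, MIR196A2 and MIR615 had none. The share over all miRNA genes was not counted, so the miRNA count has no background beside it. The windows of these genes overlap those of the HOX genes beside them and are not separate counts.

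**Figure D5:**
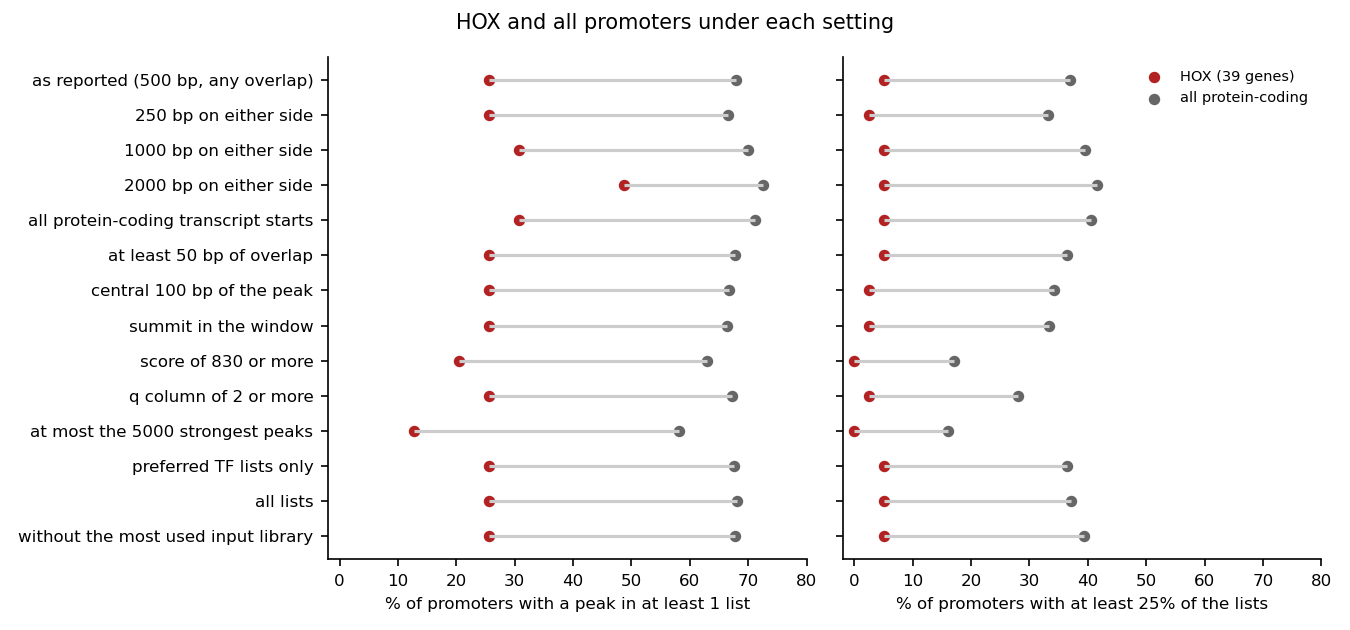
Share of the 39 HOX promoters (red) and of all protein-coding promoters (grey) with a peak in at least 1 list (left) and in at least 25% of the lists (right), in percent, under the reported setting and 13 others. The HOX share lies below that of all promoters under each setting shown.

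The low share of bound HOX promoters was seen under each way of counting that was tried. It ran from 12.8% (all promoters 58.1%), when only the 5000 strongest peaks of each list were kept, to 48.7% (all promoters 72.6%) with 2000 bp on either side of the TSS. HOXD1 kept at least 25% of lists under 11 of 13 alternatives and HOXA4 under 7, and neither did with a score of at least 830 or with the 5000 strongest peaks.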

How the data were processed

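FLAG ChIP-seq peak lists of DAPs in HepG2 were analysed, all samples but the 24 inputs of 151. The authors made each list with the ENCODE ChIP-seq pipeline in house as optimal peaks, and the submitters' processing notes name hg38. Which aligner and caller were run is not given in the sources used here. The deposited score runs from 540 to 1000. The deposited signal and the authors' q column (a score, negative in 43 lists) are not scaled between lists, so they were used only to rank or filter peaks within a list. Replicates are not given apart, and depth is unknown.

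All peaks lie within the hg38 chromosome lengths. Promoters, regions and silent stretches were computed on GENCODE 44 (Python 3.11.15, scipy 1.17.1 for intervals, pandas 2.3.3 and numpy 2.4.6) and tested on simulated data with planted overlaps. Wilson 95% intervals cover counting error only. No test between lists was made. Figures used matplotlib 3.10.9.

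A promoter and a region are not reported here. The members and gene lists were chosen with earlier results of these data known. Named were HOX promoters with and without lists, the lists with most HOX promoters (a tie at the fifth place), MEIS1, MEIS2, PBX3, SCMH1, the homeodomain lists and the 3 nearest genes on either side of each cluster. Alternatives varied the window, the start sites, the overlap rule, the peak threshold and the set of lists.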

Additional observations from a re-analysis of the deposited data

Results flagged for a closer look

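The 6 non-preferred lists were outside the counts above, and 4 of them had more peaks in the HOX clusters than 3. EP300, a histone acetyltransferase, had 5, of which 1 lay in the downstream HOXA3 region with 32 preferred lists. The ZNF431 list had 5, including 2 summits between HOXD8 and HOXD4 and 1 at HOXA4. For ZZZ3 there were 5, with 1 at HOXD1 and 1 upstream of HOXB9. TSC22D2 had 4, also with 1 at HOXD1 and 1 upstream of HOXB9. These lists held 9801 (ZZZ3) to 17599 (EP300) peaks. Per base, their peaks were 1.46 (EP300), 1.75 (TSC22D2), 1.76 (ZNF431) and 2.61 (ZZZ3) times as dense in the clusters as in the genome, beside a median of 1.97 over the preferred lists. No control list exists for them.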

How the results depend on the processing

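Of 149 values recomputed under other settings, 124 stayed within 1.5 times the reported value and 25 did not. With 2000 bp on either side, 19 HOX promoters were bound, the mean lists were 7.36 for HOXA, 1.1 for HOXB and 10.6 for HOXD, and MEIS2 was at 2 promoters. MEIS2 was at 1 promoter with 1000 bp and with all starts, and all starts gave HOXC a mean of 4.22. The number of HOX promoters with at least 25% of lists was 1 with 250 bp, with the central 100 bp, with summits and with a q column of at least 2. A score of at least 830 left 0 such promoters, 0 with MEIS1, and means of 1.82 (HOXA), 0.1 (HOXB), 0.667 (HOXC) and 3.44 (HOXD). The 5000 strongest peaks left 5 bound promoters, 0 at the 25% level, 0 with MEIS1, and means of 0.818, 0, 0.556 and 2.89. The causes were not tested. Leaving out the lists of each of 24 input libraries in turn gave 9 to 10 bound promoters and 1 to 2 at the 25% level. MEIS2 and PBX3 gave no value without the most used input library, since their own lists are left out. With the central 100 bp, silent stretches made up 62.8% to 93.8% of a cluster, and with a score of at least 830, 79.4% to 92.6%. No paired analysis was possible because each DAP has 1 list. Depth limits what a missing peak can show, and it is unknown here.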
